A study of Gallus gallus with 8 samples.

Results

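Cells labelled as deficient in both IRF4 and BCL6 (DKO, 3 arrays) were set against cells labelled as deficient in BCL6 only (BCL6KO, 2 arrays), which makes 5 of the 8 arrays of the series. All were chicken DT40 cells, a line from a bursal B cell lymphoma whose immunoglobulin genes keep changing by gene conversion as it grows, and no treatment was given in the labels. The other 3 arrays held wild-type DT40 cells (WT), which entered the estimate of spread and are given as levels for orientation. Total RNA was labelled and hybridised to 1-colour Agilent chicken expression arrays. The labelling protocol describes Cy3, whereas the sample labels name biotin. The labels do not say how many targeted clones stand behind DKO or BCL6KO, and their extraction protocol speaks of separate cultures only for WT and IRF4KO cells. The p-values below therefore measure the spread between these arrays, which may be technical.

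BCL6 is a transcriptional repressor that holds activated B cells in the germinal centre state. IRF4 is a transcription factor that rises as a B cell leaves that state and that is needed, together with BLIMP-1, for differentiation into an antibody-secreting plasma cell. That step is known for the loss of B lineage factors such as PAX5, for exit from the cell cycle and for growth of the secretory apparatus of the endoplasmic reticulum (ER). The study's title concerns antibody secretion when IRF4 is absent, and DKO and BCL6KO cells differ in label by IRF4.

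Each value is the log2 of the processed spot signal minus the 75th percentile of its array, called the log2 level, so that 0 is that percentile. Levels are compared within a probe and not between genes. A change is the DKO mean minus the BCL6KO mean of log2 levels, given ± SE, and a gene was called when its Benjamini-Hochberg adjusted p, over 24136 gene entries in a limma fit, was under 0.05. Where no array of a group was well above background, the fold is written as "at least", because the dim group gives only a limit. That limit holds for this processing only, and some changes fell below it under alternative settings. For EMB the limit was 11.12 on the log2 scale and the change ran from 8 to 12.06 over those settings. For PAX5 the limit was 4.42 and the change ran from 2.22 to 7.17. The DKO arrays had 65.8% to 67.8% of 43803 spots well above background and the BCL6KO arrays 75.1% to 79.2%. The dimmest level counted as above background was -6.59 to -6.32 on the DKO arrays and -7.97 to -7.38 on the BCL6KO arrays. The DKO and WT arrays shared a scan session and the BCL6KO arrays had another, with another release of the extraction software, so the effects of session and of genotype cannot be told apart.

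The genes named in the labels check those labels. IRF4 had log2 levels of -1.78, -1.72 and -1.66 on the DKO arrays, against 4.79 and 5.39 on the BCL6KO arrays, and 3.16, 2.96 and 2.92 on the WT arrays. Every DKO array was below every other array, and IRF4 was 112-fold lower in DKO than in BCL6KO (log2 change -6.81 ± 0.18, adjusted p = 4.01e-07). The other IRF4 probe gave at least 38.4-fold lower signal, being dim on the DKO arrays. BCL6 had log2 levels of 0.67, 0.82 and 0.94 on the DKO arrays, against -4.49 and -4.97 on the BCL6KO arrays, and 2.57, 2.58 and 2.53 on the WT arrays. The arrays labelled DKO thus carried BCL6 signal, 46.5-fold above BCL6KO (change 5.54 ± 0.15, adjusted p = 4.62e-07), with levels between those of BCL6KO and WT. Of the other 3 BCL6 probes, 2 were 39.3-fold and 39.8-fold higher in DKO and the remaining probe was not well above background in DKO or BCL6KO, while in WT it had -2.07, -2.07 and -2.02. In signal, the comparison is between cells low in IRF4 and cells low in BCL6 and high in IRF4, and every direction below is that of the libraries labelled DKO. PRDM1, which encodes BLIMP-1, had no matched probe.

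**Figure D1:**
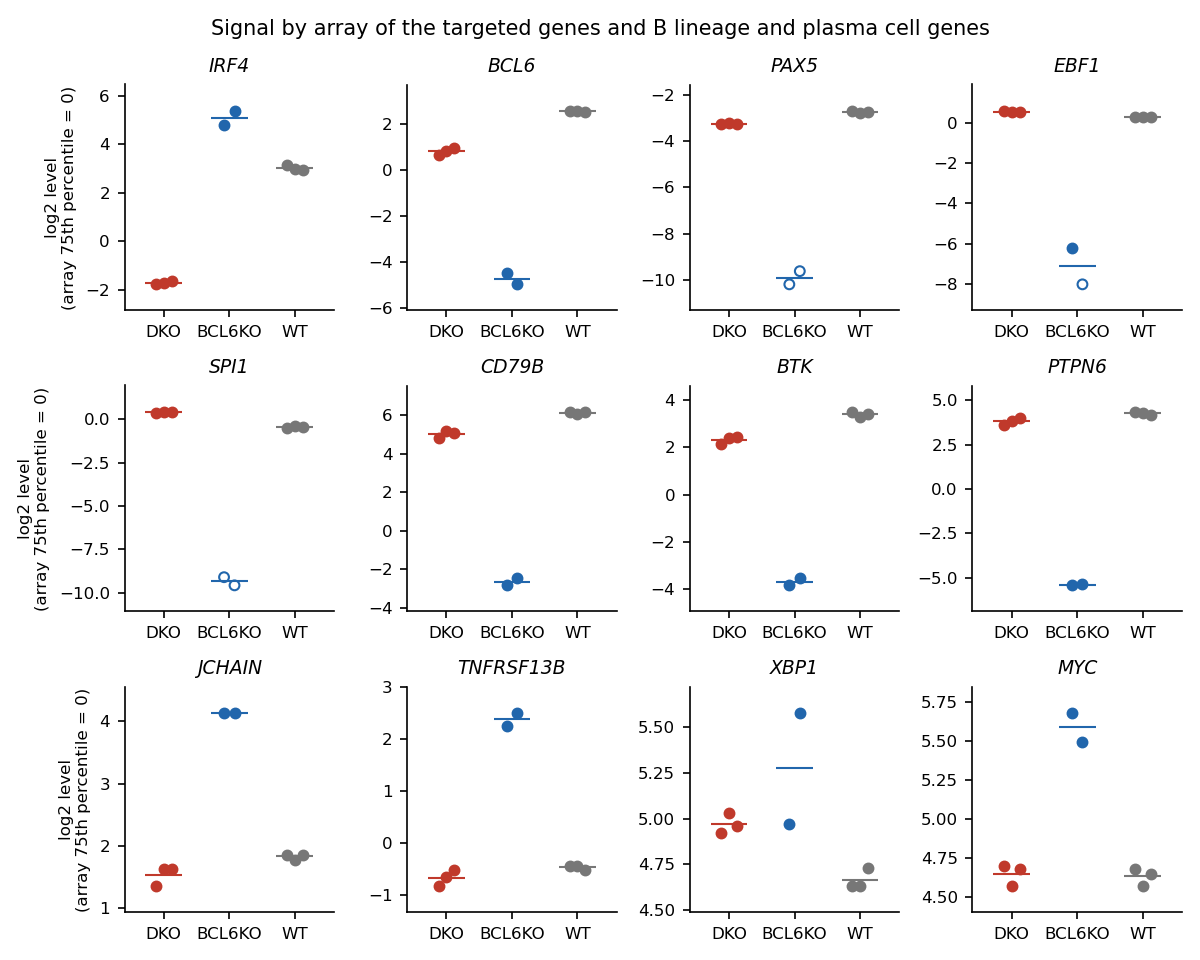
Log2 level (array 75th percentile = 0) of 12 genes on each array, with DKO in red, BCL6KO in blue and WT in grey. Filled points were well above background, open points were not, and lines are group means. IRF4, JCHAIN, TNFRSF13B and MYC sat lower on the 3 DKO arrays than on the 2 BCL6KO arrays, the other genes but XBP1 sat higher, and the XBP1 points overlapped.

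Of the 24136 entries, 6989 were higher and 9502 lower in DKO, so that 68.3% were called, with 29% higher and 39.4% lower. The median of all changes was -0.18, and scaling by the median in place of the 75th percentile moved it to -0.03. The DKO and BCL6KO arrays did not overlap in 78% of the entries, so an absence of overlap says little about a single gene here. Among the 4343 entries with a gene symbol, 34.1% were higher (1479) and 35.3% lower (1533), so that 69.4% were called, with a median of -0.02. All DKO arrays were above both BCL6KO arrays in 38.6% of them and below both in 40.6%. The gene lists below are to be read against these shares. Of the 3733 genes with a symbol that were measured on all 5 arrays, 1375 were higher and 1220 lower. Most of these changes were modest in size, with a median fold of 1.69 among the higher and 1.72 among the lower genes. Changes over 4-fold were found in 168 higher and 133 lower genes, and changes over 16-fold in 59 higher and 31 lower genes.

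Some of the entries read in DKO or BCL6KO only were also read in WT. Of 331 entries called higher that were not above background on any BCL6KO array, 112 were above background on all 3 WT arrays and 180 on none. Of 2187 entries called lower that were not above background on any DKO array, 264 were above background on all 3 WT arrays and 1548 on none. Since dimmer spots passed on the BCL6KO arrays, the 2187 entries were not counted on the same footing as the 331.

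The arrays also carry probes for synthetic E1A control RNAs, which are added to a sample before labelling. The median level of the 6 that were above background on all arrays was -0.33, -0.28 and -0.31 on the DKO arrays, 1.38 and 0.69 on the BCL6KO arrays, and -0.66 to -0.68 on the WT arrays. They lay lower in DKO than in BCL6KO by a median of 1.42 on the log2 scale, with a range of 0.99 to 1.65 over the 6 controls, and the BCL6KO arrays also differed from each other. The amount of control RNA per sample was not given in the sources used here, and the levels below were not scaled to it. Of the 9502 entries called lower in DKO, 6159 changed by less than this shift, as did 1064 of the 1533 with a symbol. Their direction therefore holds relative to the rest of the array, not relative to the controls.

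**Figure D2:**
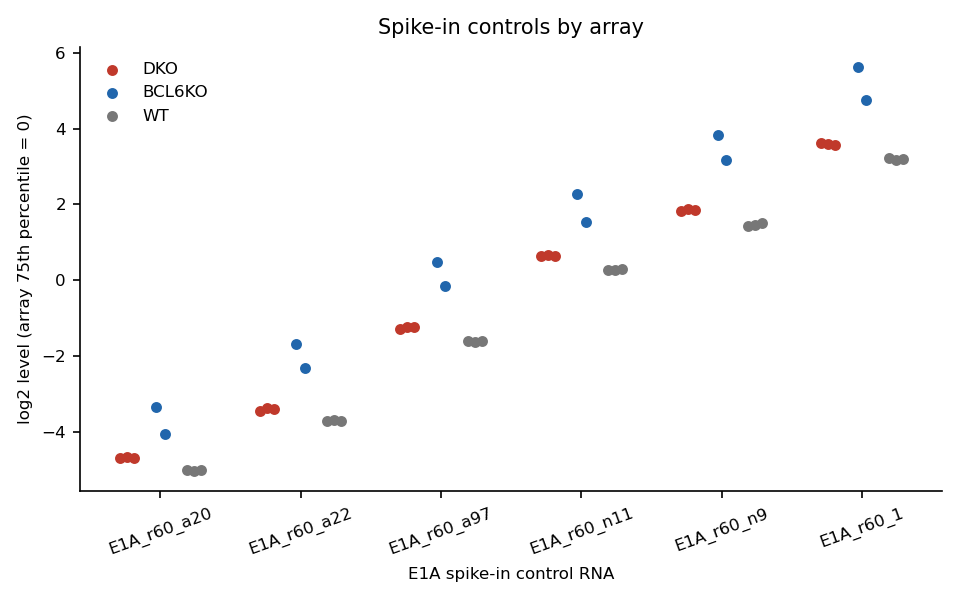
Log2 level (array 75th percentile = 0) of the 6 E1A control RNAs that were above background on all 8 arrays, each point an array. All 6 sat lower on the DKO than on the BCL6KO arrays, with a median difference of -1.42, and the DKO and WT points lay closer together.

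Genes that define B cells were higher in the DKO arrays. All 6 tested B cell markers were called higher. CD79B, a signalling chain of the B cell receptor, had levels of 4.81, 5.15 and 5.09 in DKO, against -2.83 and -2.47 in BCL6KO (204-fold, adjusted p = 1.21e-07). BTK, a kinase needed for receptor signalling, had 2.14, 2.37 and 2.41, against -3.83 and -3.52 (63.1-fold). CD74, the invariant chain of class II antigen presentation, was 12.8-fold higher, and the gene listed as SH2D6, with BLNK as its synonym, 2.84-fold higher. In WT, CD79B averaged 6.13 and BTK 3.39. These B cell markers were thus read on the DKO and WT arrays, which cannot tell the DT40 line from other B cells. In BCL6KO these genes differed. CD79B and BTK were read there, at levels below those of DKO and WT, whereas PAX5 was not read. SH2D6 had 2.50 and 3.02 in BCL6KO and CD74 had 0.75 and 0, and each gene was read on both arrays. Whether the BCL6KO cells kept the B cell identity of the line was not tested.

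Among B lineage transcription factors, 11 of 21 tested were higher and 5 lower, with a median change of 0.33. PAX5, which maintains B cell identity, had levels of -3.28, -3.23 and -3.25 in DKO and was not above background in BCL6KO (at least 21.5-fold higher, adjusted p = 2.79e-07). SPI1, which encodes PU.1, had 0.38, 0.44 and 0.40 in DKO and was not above background in BCL6KO (at least 271-fold higher). EBF1, a factor that specifies the B lineage, had 0.62, 0.53 and 0.55 in DKO and -6.21 and -8.02 in BCL6KO, of which the second array was not above background (adjusted p = 1.39e-05). All 3 factors were read on every WT array. FOXO1 was 15.6-fold, BCL11A 8.34-fold and IKZF1, which encodes Ikaros, 2.83-fold higher. The list did not move one way. TCF3, which encodes the E2A proteins, had 0.91, 0.89 and 0.88 in DKO, against 2.90 and 3.12 in BCL6KO (4.34-fold lower, adjusted p = 1.91e-06), and POU2AF1, a coactivator of immunoglobulin promoters, was 2.79-fold lower. Of the ID proteins, which block E proteins, ID2 was 4.80-fold higher and ID1 3.97-fold lower.

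The ETS, RUNX and AP-1 factors were called higher in 15 of 22 genes and lower in 3, with a median of 0.51. ETV1, an ETS factor, had levels of 5.02, 4.81 and 4.86 in DKO, against -1.52 and -0.80 in BCL6KO (66.4-fold higher), and averaged -8.69 in WT, below background. RUNX1T1, a corepressor, was higher with 0.21, -0.04 and -0.12 in DKO, against -3.41 and -4.99 in BCL6KO, and likewise dark in WT at -8.60. Its change of 4.21 was 5.00 without BCL6KO array 1 and 3.43 without array 2. RUNX1 was 6.4-fold and ETS1 4.39-fold higher. MAFK, a small partner of other leucine zipper factors, was 2.30-fold lower. BACH1, a repressor that binds DNA with such partners, had -3.41, -3.27 and -3.17 in DKO, against -0.89 and -2.23 in BCL6KO, and its change of -1.72 was -1.05 without BCL6KO array 1, -2.40 without array 2, and not called with array weights (adjusted p = 0.0612). Among the interferon regulatory factors, 1 of 7 was higher and 5 lower, IRF4 included. IRF5 was 6.87-fold higher, with -3.54, -3.14 and -3.19 in DKO against -6.10 and -6.04 in BCL6KO. IRF8, which partners PU.1 in B cells, had 0.61, 0.94 and 0.96 in DKO, against 2.11 and 1.95 in BCL6KO (2.28-fold lower, adjusted p = 0.000175). The gene listed as IRF9, with IRF10 as its synonym, was at least 1.83-fold lower.

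Genes of B cell receptor signalling were called higher in 22 of 42 and lower in 11, with a median of 0.52. Of the 11 lower genes, 2 exceeded the shift of the control RNAs. PTPN6, the inhibitory phosphatase SHP-1, had levels of 3.62, 3.83 and 3.97 in DKO, against -5.44 and -5.39 in BCL6KO (598-fold higher, adjusted p = 4.59e-08). The kinase LYN, which opens and restrains signalling, had 4.51, 4.53 and 4.58, against -1.69 and -1.82 (78.4-fold higher). PIK3AP1, the adaptor BCAP, was 82.9-fold and the kinase PRKCD 49.8-fold higher, whereas SYK was 2.83-fold higher. CD72 and CD5, which damp signalling at the surface, were called higher and were above background on 1 of the 2 BCL6KO arrays each. Of the lower genes, NCKAP1L, a regulator of actin in blood cells, was 11-fold lower (-1.5, -1.53 and -1.54 in DKO, against 1.68 and 2.19 in BCL6KO), the ubiquitin ligase CBL at least 1.98-fold lower and PTPRC, which encodes CD45, 1.48-fold lower. The kinase FYN had a change of -0.88 ± 0.22 (adjusted p = 0.0108). Its call was lost without BCL6KO array 1 (-0.83), in a cyclic loess scaling (-0.35), with array weights and with a minimum fold of 1.5.

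Plasma cell genes were called lower in 8 of 16 and higher in 5, with a median of -0.32. JCHAIN, which joins polymeric immunoglobulins, had levels of 1.35, 1.63 and 1.63 in DKO, against 4.13 and 4.14 in BCL6KO (6.04-fold lower, adjusted p = 2.06e-06). WT averaged 1.84. TNFRSF13B, the receptor TACI, had -0.83, -0.65 and -0.52, against 2.26 and 2.51 (8.28-fold lower), and FAM46C (TENT5C), a poly(A) polymerase of plasma cells, had -4.76, -4.84 and -4.57, against -2.25 and -1.24 (7.90-fold lower). The elongation factor partner EAF2 was 4.86-fold and the ER-anchored factor CREB3L2 2.52-fold lower. CXCR4, a homing receptor, went the other way with -2.24, -2.15 and -2.10 in DKO, against -4.83 and -5.32 in BCL6KO (7.53-fold higher), and CD38 was 3.1-fold higher, a call lost with array weights (adjusted p = 0.0697). XBP1, the factor that drives secretory expansion, had 4.92, 5.03 and 4.96 in DKO, against 4.97 and 5.58 in BCL6KO. The groups overlapped and XBP1 was not called (change -0.31 ± 0.17, adjusted p = 0.145). When BCL6KO array 1 was left out its change was -0.61 and called lower, as it was in a cyclic loess scaling, and when array 2 was left out the change was 0. With 1 BCL6KO array left, here and wherever a BCL6KO array is left out, the spread comes from the DKO and WT arrays alone and the lone array is assumed to vary like them.

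Folding, degradation and glycosylation genes of the ER were lower in DKO more often than higher. Of 18 genes of ER folding and the unfolded protein response, 13 were lower and 1 higher, with a median of -0.88, against 35.3% lower among all genes with a symbol. P4HB, a disulphide isomerase, had 2.54, 2.6 and 2.6 in DKO, against 4.04 and 4.51 in BCL6KO (3.24-fold lower, adjusted p = 4.55e-05). HSP90B1, the chaperone GRP94, had 4.04, 4.13 and 4.16, against 5.29 and 6.01 (2.91-fold lower). The isomerase FKBP14 was 4.84-fold, TXNDC5 3.06-fold, PDIA4 2.38-fold and the stress sensor kinase EIF2AK3 (PERK) 1.74-fold lower. In WT, P4HB averaged 2.27, HSP90B1 4.22, FKBP14 -2.68, TXNDC5 2.82, PDIA4 3.27 and EIF2AK3 -0.79. Each of these WT means lay nearer to the DKO mean than to the BCL6KO mean. DKO and WT shared a scan session, and the cause was not tested. HSPA5, the chaperone BiP, had 5.47, 5.32 and 5.51 in DKO, against 5.27 and 6.05 in BCL6KO, overlapped and was not called (adjusted p = 0.374). FKBP9 was the exception at 9.21-fold higher. Of the 13 lower genes, 5 exceeded the shift of the control RNAs, and with each array left out in turn 13 to 15 genes were lower.

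ER-associated degradation, which returns misfolded proteins to the cytosol, was lower in 8 of 12 genes and higher in 1, with a median of -0.49. Of the 8 lower genes, 3 exceeded the shift of the control RNAs. UBE2J1 had -2.16, -2.08 and -2.13 in DKO, against -0.05 and 0.17 in BCL6KO (4.54-fold lower), EDEM3 was 4.34-fold and SEL1L 2.69-fold lower, and UFD1L was 1.30-fold higher. In WT, UBE2J1 averaged -0.77, nearer to BCL6KO than to DKO, while EDEM3 averaged -3.2 and SEL1L -3.4, nearer to DKO. N-glycosylation was lower in 11 of 18 and higher in 3, with a median of -0.44, and 2 of the 11 exceeded that shift. FUT8, which adds core fucose, had -1.92, -1.90 and -1.91, against -0.10 and 0.04 (3.69-fold lower), while DDOST, of the oligosaccharyltransferase, and the galactosyltransferase B4GALT1 were each 2.48-fold lower. WT averaged -1.34 for FUT8, 3.1 for DDOST and 1.16 for B4GALT1, each nearer to DKO than to BCL6KO. The sialyltransferase ST3GAL6 opposed the list at 1.35, 1.47 and 1.43 in DKO, against -3.56 and -3.89 in BCL6KO (35.1-fold higher). Of 31 translocation and vesicle transport genes, 11 were lower, 3 were higher and 17 were not called (median -0.23), and none of the 11 exceeded the shift of the control RNAs. These counts hung on single arrays, with 18 lower without BCL6KO array 1 and 9 higher without BCL6KO array 2. SRPRA, of the signal recognition particle receptor, was 2.47-fold lower and the signal peptidase subunit SEC11A 1.81-fold higher.

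**Figure D3:**
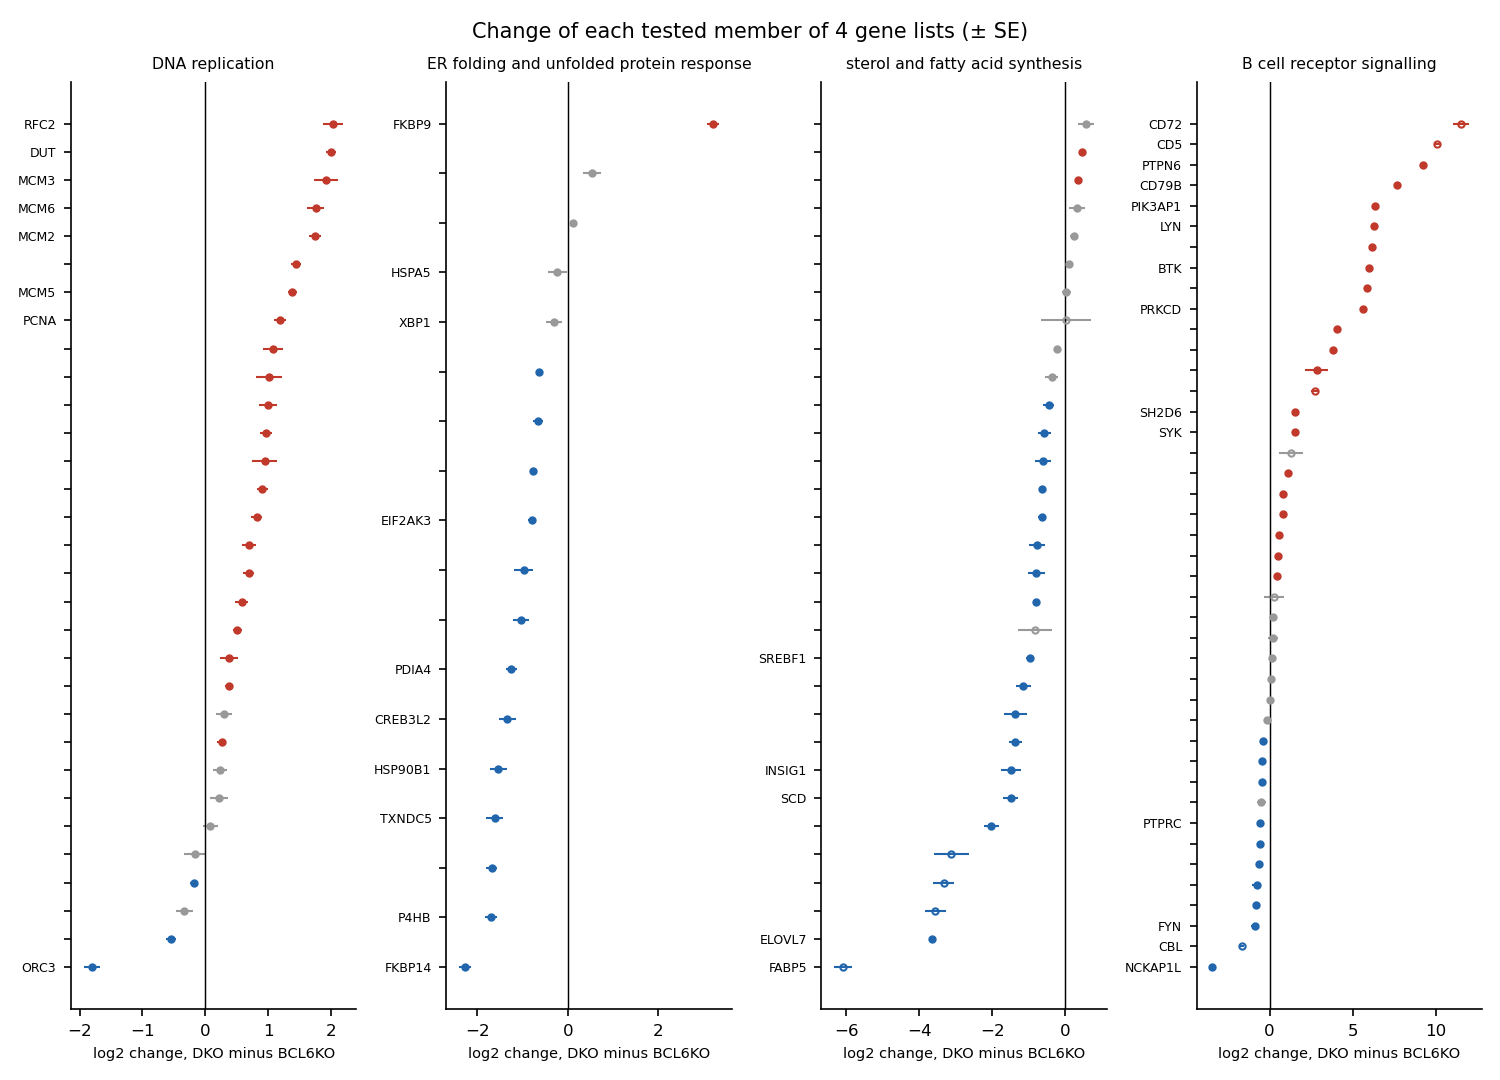
Log2 change (DKO minus BCL6KO, ± SE) of every tested member of 4 gene lists, labelled where the text names the gene, red where called higher in DKO, blue where called lower and grey where not called. Open points mark genes that were not well above background on all 5 arrays. DNA replication genes lay mostly above 0 (22 of 31 called higher), and ER folding genes mostly below it (13 of 18 called lower).

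Genes of DNA replication and mitosis were higher in DKO more often than lower. Of 31 DNA replication genes, 22 were higher and 3 lower, with a median of 0.70. MCM2, of the replicative helicase, had 4.69, 4.75 and 4.80 in DKO, against 2.98 and 3.01 in BCL6KO (3.37-fold higher, adjusted p = 1.07e-05), and MCM3, MCM5 and MCM6 were 3.81-fold, 2.62-fold and 3.40-fold higher. RFC2, of the clamp loader, was 4.12-fold higher, DUT, which keeps uracil out of DNA, 4.01-fold and the clamp PCNA 2.28-fold. In WT, MCM2 averaged 4.98. ORC3, of the origin recognition complex, was 3.47-fold lower, with 1.38, 1.34 and 1.40 in DKO against 2.95 and 3.38 in BCL6KO. Of 45 mitosis genes, 29 were higher and 3 lower, with a median of 0.45. The spindle motor KIF11 had 3.71, 3.66 and 3.63, against 1.91 and 2.01 (3.27-fold higher), INCENP was 2.96-fold, CDK1 1.92-fold and TOP2A 1.79-fold higher, and the centromere protein CENPN was 2.43-fold lower. With each array left out in turn, 20 to 23 replication genes and 26 to 36 mitosis genes were called higher.

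The genes that govern entry into the cycle went both ways, with 9 of 23 higher (39.1%) and 8 lower (34.8%). These were near the shares over all genes with a symbol (34.1% higher, 35.3% lower). Of the 8 lower genes, 3 exceeded the shift of the control RNAs. CDK6 had -0.47, -0.48 and -0.59 in DKO, against -3.66 and -3.75 in BCL6KO (9.14-fold higher), and cyclin D2 (CCND2) was 2.06-fold higher. CDKN1B, which encodes the inhibitor p27, was 4.48-fold higher with levels between 2.07 and 2.13 in DKO, against 0.40 and -0.52 in BCL6KO, and CDKN1A, which encodes p21, was 3.48-fold lower with -5.21, -5.10 and -4.74 in DKO, against -3.22 and -3.21 in BCL6KO. Cyclin E1 (CCNE1) was 3.86-fold lower. Of 20 genes of the MYC network and ribosome biogenesis, 6 were higher (30%) and 7 lower (35%), with a median of -0.10 that scaling by the median turned to 0.05. These shares too were near those over all genes with a symbol, and 1 of the 7 lower genes exceeded the shift of the control RNAs. MYC had 4.70, 4.57 and 4.68 in DKO, against 5.68 and 5.49 in BCL6KO (1.91-fold lower, adjusted p = 0.000101), and MXD4, which competes with MYC for its partner MAX, was 3.40-fold lower. In WT, MYC averaged 4.63 and MXD4 1.17. Of 33 cytosolic ribosomal proteins, 25 were not called, 3 were higher and 5 lower, with none of the 5 beyond the shift of the control RNAs. Their median of -0.15 turned to 0.12 under quantile normalization, cyclic loess called 18 lower and 10 were lower without BCL6KO array 1.

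Genes of immunoglobulin diversification and recombination were higher in 11 of 19 and lower in 4, with a median of 0.46. None of the 4 lower genes exceeded the shift of the control RNAs. DNTT, the terminal transferase, had -2.24, -1.84 and -1.73 in DKO, against -6.22 and -5.70 in BCL6KO (16.3-fold higher). UNG, which removes uracil from DNA, was 3.20-fold higher, the translesion polymerase POLH 1.91-fold lower and NBN, of the break-sensing MRN complex, 2.38-fold lower. Of 35 repair and checkpoint genes, 14 were higher and 7 lower, and 11 were lower without BCL6KO array 1. RDM1, a RAD52-like gene, had 0.01, 0.12 and 0.05 in DKO and was not above background in BCL6KO (at least 214-fold higher), and the helicase BLM was 2.99-fold higher. None of the 7 lower repair and checkpoint genes exceeded the shift of the control RNAs.

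Genes of the BCL2 family and apoptosis were called lower in 16 of 28 and higher in 5, with a median of -0.29. Of the 16 lower genes, 2 exceeded the shift of the control RNAs. VDAC1, a channel of the outer mitochondrial membrane, was not above background in DKO or in WT and had 0.47 and 1.17 in BCL6KO (at least 156-fold lower in DKO), while VDAC2 was 1.67-fold higher. VDAC1 thus passed the filter only through BCL6KO, which favours a lower call. BCL2 had -1.82, -1.95 and -1.91 in DKO, against -0.42 and -0.51 in BCL6KO (2.69-fold lower), and the killer protein BAK1 was 2.97-fold lower. BOK, another killer, had -0.77, -0.90 and -0.88, against -2.73 and -2.78 (3.75-fold higher). With a minimum fold of 1.5, 6 genes were lower and 1 higher, and scaling by the median gave 8 lower and 7 higher.

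Of 25 genes reported as BCL6 targets in mammals, 12 were higher and 9 lower, with a median of 0.35. CD44, an adhesion receptor, was not above background in DKO and had -1.46 and -1.14 in BCL6KO (at least 36.0-fold lower), and CDKN1A, MYC and BCL2 were also lower. In WT, CD44 averaged -1.88 and CDKN1A -3.17, nearer to BCL6KO than to DKO. MYC averaged 4.63 there and BCL2 -4.2, nearer to DKO. Of the 9 lower genes, 2 exceeded the shift of the control RNAs. Whether BCL6 acts on these genes here was not tested. NFKB1 had 1.11, 1.20 and 1.17 in DKO, against -0.38 and -1.42 in BCL6KO (4.15-fold higher). The gene listed as CD88, with CD80 as its synonym, had 0.89, 1.05 and 0.98 in DKO and was not above background in BCL6KO (at least 402-fold higher), and PTPN6, CXCR4 and CDKN1B were also higher.

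Antigen presentation and immune receptor genes were called in both directions. Of 17 genes of MHC and antigen presentation, 10 were lower and 4 higher, with a median of -0.60. Only 12 of the 17 were measured on all 5 arrays, and the median ran from -0.66 to -0.08 under the alternatives. Of the 10 lower genes, 3 exceeded the shift of the control RNAs, and fewer were called lower with any 1 array left out. The lower ones included TAPBP, the tapasin of class I loading, with 0.23, 0.25 and 0.01 in DKO, against 2.71 and 3.02 in BCL6KO (6.52-fold lower), TAP2 (2.13-fold) and the gene listed as CTSV, with CTSL as its synonym (11.5-fold). The TAPBP change of -2.71 ran from -2.86 to -1.07 under the alternatives. CTSS, the protease that trims the invariant chain, was 5.74-fold higher and CD1B 11-fold higher. All 12 tested genes of innate sensing were called, 8 higher and 4 lower, with none of the 4 beyond the shift of the control RNAs. TLR2 was 101-fold higher (0.10, 0.32 and 0.38 in DKO, against -5.49 and -7.31 in BCL6KO, a change of 6.66 that was 7.57 without BCL6KO array 1 and 5.75 without array 2), TLR1A 38.2-fold and TLR1B at least 7.08-fold higher. TLR21, the chicken receptor for unmethylated CpG DNA, was 2.45-fold lower. With each array left out in turn, 5 to 8 of the innate sensing genes were higher, the fewest without DKO array 3.

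Of 40 cytokine, chemokine and TNF family receptors and ligands, 21 were lower and 11 higher, with a median of -0.82. Only 26 of the 40 were measured on all 5 arrays, and members that passed the filter only through BCL6KO favour lower calls. IL2RG, the chain shared by several interleukin receptors, had 3.70, 3.81 and 3.91 in DKO, against -5.50 and -5.24 in BCL6KO (578-fold higher, adjusted p = 4.45e-08), near its WT mean of 4.61. IL18R1 was at least 38.2-fold higher and was not read in WT, where it averaged -8.85. The chemokine CCL1 had 0.47, 0.44 and 0.33, against 4.49 and 4.84 (19.1-fold lower), and TNFRSF1B, a TNF receptor, was 20.8-fold lower. Of 16 interferon response genes and receptors, 7 were lower and 4 higher, and 3 of the 7 exceeded the shift of the control RNAs. LY6E was 34.1-fold higher (1.11, 1.53 and 1.54 in DKO, against -4.05 and -3.34 in BCL6KO), and the feedback inhibitor SOCS1 6.47-fold lower. Of 19 NF-kB subunits and targets, 8 were lower and 5 higher, and 3 of the 8 exceeded that shift. The gene listed as LITAF, with TNF-alpha as a synonym, had -4.01, -4.06 and -4.04 in DKO, against 1.41 and 2.19 in BCL6KO (57.1-fold lower), and 4.50 on average in WT.

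**Figure D4:**
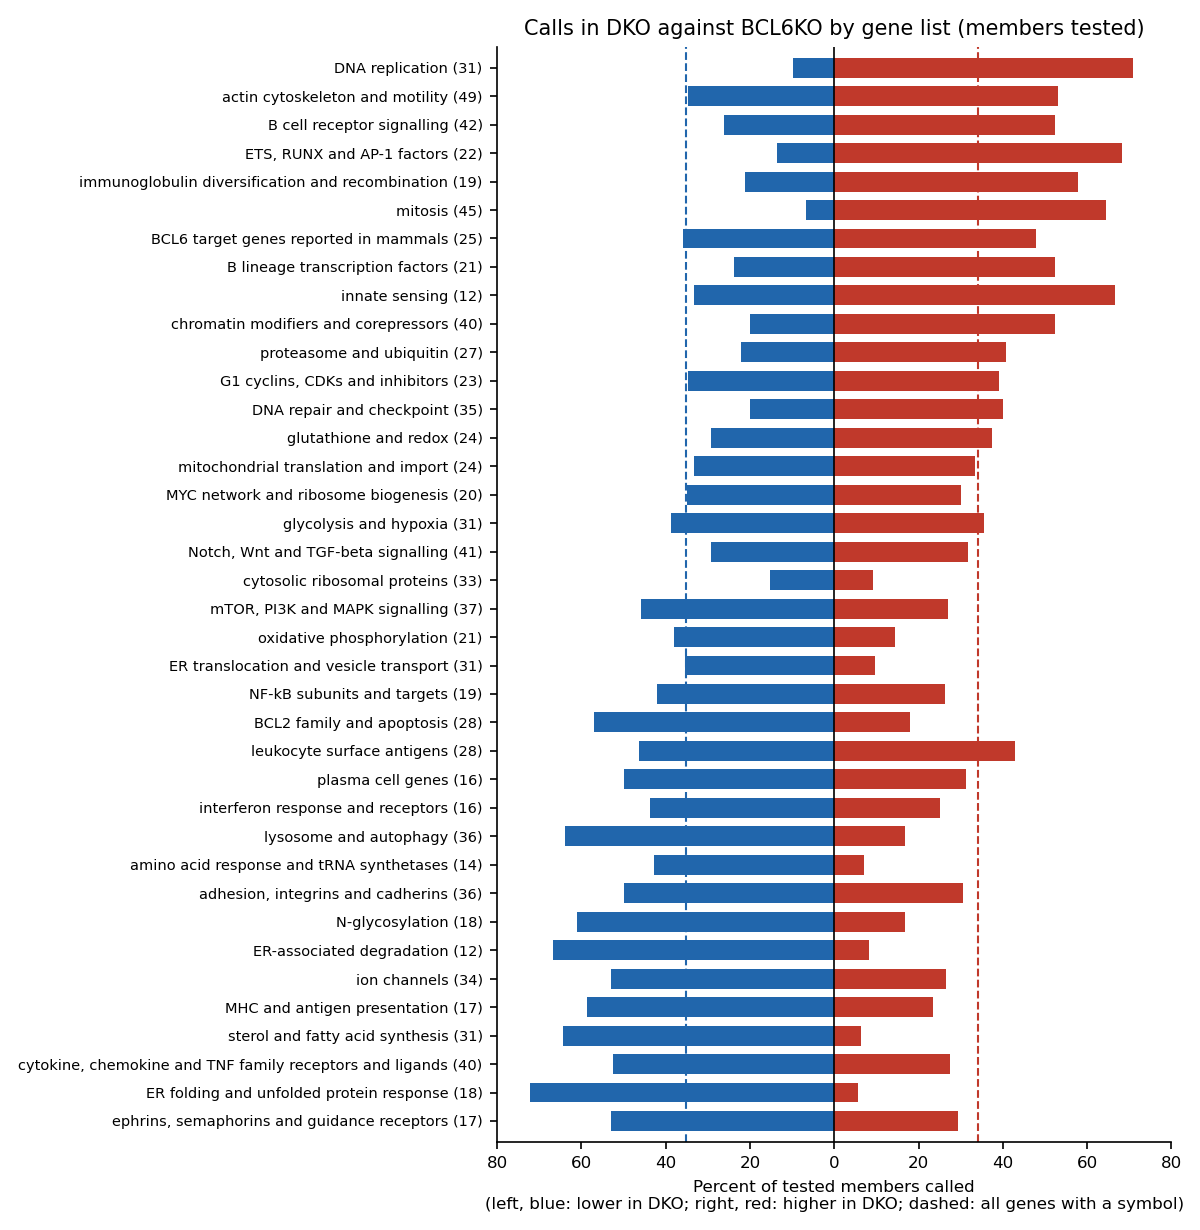
Percent of tested members called higher in DKO (right, red) and lower in DKO (left, blue) for the lists with at least 12 tested members, ordered by median change. Dashed lines give the shares over all genes with a symbol (34.1% higher, 35.3% lower). DNA replication stands at the top with 71% higher and 9.68% lower, and ER folding near the bottom with 5.56% higher and 72.2% lower.

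Metabolic lists differed in direction. Of 31 genes of sterol and fatty acid synthesis, 20 were lower and 2 higher, with a median of -0.77. These counts include genes dark in DKO, since 25 of the 31 were measured on all 5 arrays. INSIG1, a feedback regulator of sterol synthesis, was 2.79-fold, the desaturase SCD 2.81-fold and the transcription factor SREBF1 1.96-fold lower, and the elongase ELOVL7 had -2.20, -2.33 and -2.36, against 1.24 and 1.44 (12.4-fold lower). In WT, INSIG1 averaged 3.08, SCD -0.95 and SREBF1 -3.66, nearer to DKO than to BCL6KO, and ELOVL7 0.46, nearer to BCL6KO. FABP5, a fatty acid binding protein, was not above background in DKO and had -1.25 and -2.14 in BCL6KO (at least 27.4-fold lower), and averaged 2.92 in WT. Without BCL6KO array 2, 6 were higher and 18 lower. Of the 20 lower genes, 8 exceeded the shift of the control RNAs. Lysosome and autophagy genes were lower in 23 of 36 and higher in 6, with a median of -0.36, and 4 of the 23 exceeded that shift. CTSB, CTSD and LAMP1 were 5.59-fold, 2.19-fold and 2.31-fold lower, and TFEB, which drives lysosomal genes, 1.92-fold lower. The call of TFEB was lost with a minimum fold of 1.5. CTSA stood against these with 5.90, 6.17 and 6.19 in DKO and 1.5 and 1.55 in BCL6KO (23.6-fold higher).

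Glycolysis and hypoxia genes were called higher in 11 of 31 (35.5%) and lower in 12 (38.7%), and the sign of their median (-0.12) changed under scaling by the median (0.03). Both shares were near those over all genes with a symbol (34.1% higher, 35.3% lower). Of the 12 lower genes, 3 exceeded the shift of the control RNAs. PFKM, the muscle phosphofructokinase, had -5.30, -5.04 and -5.44 in DKO, against 3.36 and 3.89 in BCL6KO (473-fold lower, adjusted p = 3.16e-07), and the WT mean of -5.42 was near the DKO levels. LDHA, a lactate dehydrogenase, was 3.00-fold higher and the hexokinases HK1 and HK2 2.19-fold higher and 2.07-fold lower. Of 21 genes of oxidative phosphorylation, 8 were lower, none of them beyond the shift of the control RNAs, and 3 higher, with the largest changes in each direction at 1.71-fold higher (NDUFB8, of complex I) and 1.42-fold lower (SDHB, of complex II). Without BCL6KO array 1, 13 were lower, without DKO array 1 there were 5, and with a minimum fold of 1.5 none was called. Of 24 glutathione and redox genes, 9 were higher (37.5%) and 7 lower (29.2%), and 5 were higher without DKO array 1. Of the 7 lower genes, 2 exceeded the shift of the control RNAs. The gene listed as GSTA3, with GSTA1 as its synonym, was at least 55.2-fold higher and TXNRD1, a thioredoxin reductase, 5.11-fold higher (3.05, 3.06 and 3.15 in DKO, against 0.41 and 1.06 in BCL6KO). HPGDS, a prostaglandin D synthase, had 4.95 and 1.89 on the BCL6KO arrays and was 23.5-fold lower in DKO, so this fold depends on the array it is set against.

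Actin and adhesion genes were called in both directions, some with large folds. Of 49 actin and motility genes, 26 were higher and 17 lower, with a median of 0.52. MYO1G, a myosin of lymphocytes, had 2.20, 2.28 and 2.34 in DKO, against -6.80 and -6.22 in BCL6KO (440-fold higher), and MYO1F was 164-fold and TMSB4X, an actin-binding thymosin, 47.0-fold higher. The MYO1G change of 8.78 ran from 4.78 to 9.27 under the alternatives. RHOC, a small GTPase, was at least 40.1-fold lower and SYNM, which joins intermediate filaments to other structures, was lower by at least 194-fold, with neither above background in DKO. RHOC was read on all 3 WT arrays. SYNM was dark in WT as well and passed the filter only through BCL6KO, which favours a lower call. Of 36 adhesion genes, 18 were lower and 11 higher, with a median of -0.42, while of the 19 measured on all 5 arrays 7 were lower and 8 higher, with a median of 0. Fewer of the 36 were called lower with any 1 array left out. ITGB2, the chain shared by leukocyte integrins, had 2.77, 2.80 and 2.75, against -5.81 and -6.88 (558-fold higher), close to its WT mean of 2.83. EMB, a partner of monocarboxylate transporters, had 3.55, 3.36 and 3.42 in DKO and was not above background in BCL6KO (at least 2230-fold higher). PARVB, an adaptor of focal adhesions, was dark in DKO and WT and had 3.82 and 4.01 in BCL6KO (at least 1340-fold lower in DKO). CDH11, a mesenchymal cadherin, was 47.9-fold lower and COL6A2 at least 14.8-fold lower. COL6A2, like PARVB, was dark in DKO and WT, so both passed the filter only through BCL6KO, which favours lower calls.

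Genes of guidance, channels and morphogen signalling were called in both directions. Of 17 ephrins, semaphorins and guidance receptors, 9 were called lower and 5 higher, but only 6 were measured on all 5 arrays, and of these 4 were higher and 2 lower. Most of the lower calls were thus of genes that passed the filter through BCL6KO, among them EFNA5 (at least 318-fold) and UNC5C (at least 9.04-fold), which were not above background in DKO. Of 34 ion channels, 18 were lower and 9 higher, but only 18 of the 34 were measured on all 5 arrays. Channels dark in DKO and WT passed the filter only through BCL6KO, which favours lower calls. HVCN1, the proton channel of B cells, had 2.49, 2.58 and 2.83 in DKO, against -4.03 and -3.56 in BCL6KO (86.1-fold higher), while SCN1A was at least 193-fold and ANO5 47.8-fold lower. Of 41 genes of Notch, Wnt and TGF-beta signalling, 13 were higher (31.7%) and 12 lower (29.3%), and the lower count varied with the array left out. Both shares were near or below those over all genes with a symbol (34.1% and 35.3%). Only 27 of the 41 were measured on all 5 arrays, and scaling by the median turned their median of -0.13 to 0.02. DKK3 had 3.69, 3.55 and 3.54, against -5.86 and -5.41 (601-fold higher), the Notch ligand DLL1 was at least 51.7-fold higher and the Notch ligand JAG1 at least 21.5-fold lower. Of 37 genes of mTOR, PI3K and MAPK signalling, 17 were lower and 10 higher, and 6 of the 17 exceeded the shift of the control RNAs. PRKCA had -0.71, -0.73 and -0.84 in DKO, against 3.48 and 3.78 in BCL6KO (20.9-fold lower), and PRKCH was at least 14.2-fold lower, whereas PRKCD, from the same kinase family, was higher as given above.

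Chromatin modifiers and corepressors were higher in 21 of 40 and lower in 8, with a median of 0.27, and 1 of the 8 exceeded the shift of the control RNAs. HDAC7 was 4.11-fold and BRD3 3.74-fold higher, and HDAC9 had -5.09, -5.08 and -5.11 in DKO, against -2.65 and -2.53 in BCL6KO (5.66-fold lower). Of 27 proteasome and ubiquitin genes, 11 were higher and 6 lower, and 2 or 3 were lower without any 1 of the arrays but BCL6KO array 1. PSME3, a proteasome activator, was 2.90-fold higher. Of the 6 lower proteasome and ubiquitin genes, 1 exceeded the shift of the control RNAs. Mitochondrial translation and import had 8 of 24 genes called in each direction (33.3%), near the shares over all genes with a symbol (34.1% higher, 35.3% lower). None of the 8 lower genes exceeded the shift of the control RNAs. Of 14 genes of the amino acid response and tRNA synthetases, 6 were lower, none of them beyond that shift, and 1 was higher. Those counts also varied with the array left out, with 10 lower without BCL6KO array 2, 3 lower without DKO array 2 and 4 higher without BCL6KO array 1.

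Other large changes lay outside the lists. ANXA5, annexin A5, had 3.73, 3.96 and 3.97 in DKO, against -5.00 and -5.29 in BCL6KO (525-fold higher), and RASSF2 had 2.78, 3.15 and 3.21, against -5.79 and -5.73 (447-fold higher). NSG1 was 206-fold higher. F2RL1, a protease-activated receptor, and the galactosyltransferase B4GALT6 were dark in BCL6KO, and DKO was at least 201-fold higher for F2RL1 and 383-fold for B4GALT6. These genes were read on all WT arrays, whereas CRYBB1, a lens crystallin gene (159-fold higher), and PHYHIPL (at least 401-fold) were not read on any. Among the lower genes, MDK, the growth factor midkine, had -4.53, -4.91 and -5.23 in DKO, against 0.93 and 0.88 in BCL6KO (55.6-fold lower), with 3.34, 3.35 and 3.25 in WT. BVES was 68.4-fold and SDR42E2 59.0-fold lower, and both were higher in level in WT than in DKO. BTC, an EGF family ligand, was 93.8-fold lower and CAB39L 49.8-fold lower. DNM1, a dynamin, and CD200, an inhibitory surface ligand, were dark in DKO, by at least 137-fold for DNM1 and 229-fold for CD200.

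Markers of other cell types were read in the same way, and their part in the results was not tested. Of 5 T cell markers, 1 was higher and 3 lower (1 lower without BCL6KO array 1). CD3D was 4.90-fold higher, with 3.07, 3.37 and 3.45 in DKO, against 1.51 and 0.50 in BCL6KO and a WT mean of 6.01. Of 6 macrophage markers, 3 were higher and 1 lower, the lower one being MERTK (3.89-fold). Of 7 erythroid markers, 4 were higher and 1 lower. The globin HBBA had 0.14, 0.07 and 0.07 in DKO, against -5.98 and -5.17 in BCL6KO (50.8-fold higher), HBE was 11.4-fold higher, and HBAD was 1.95-fold lower. Of 7 fibroblast markers, 1 was higher (COL1A2, 22.8-fold) and 4 lower, but only 2 of the 7 were measured on all 5 arrays. Of 4 neural markers, 2 were higher, among them STMN2, a tubulin-binding protein, with 6.11, 5.98 and 6.15 in DKO, against -3.31 and -3.01 in BCL6KO and a WT mean of 5.25 (604-fold higher), and 1 was lower. Only STMN2 among these 4 was measured on all 5 arrays. Of 3 thrombocyte markers, 2 were lower, and of 6 muscle markers 1 was higher and 2 lower. No muscle marker was measured on all 5 arrays.

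Genes were also grouped by the chromosome that holds them in RefSeq's chicken assembly GRCg7b, a description chosen after the data were seen and given with no test. Over the genes measured on all 5 arrays the median change was 0.05. On chromosome 10 it was 0.74, with 68 of 101 genes higher and 13 lower, and on chromosomes 6 and 19 it was 0.67 (117 genes) and 0.57 (85 genes). At the other end were chromosome 24 with -0.45 (42 genes), chromosome 21 with -0.39 (66 genes) and chromosome 14 with -0.36 (91 genes). Against BCL6KO array 1 alone the median for chromosome 10 was 0.71 and against array 2 alone 0.63, and under 4 other scalings it ran from 0.59 to 0.89. DKO minus WT gave medians of 0.06 for chromosome 10 and 0.10 for chromosome 6, and BCL6KO minus WT gave -0.68 and -0.61. Chromosome 9 was lower than WT in DKO (-0.74) and in BCL6KO (-0.36). Since DKO and BCL6KO share the WT arrays in these values, they are given side by side only.

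**Figure D5:**
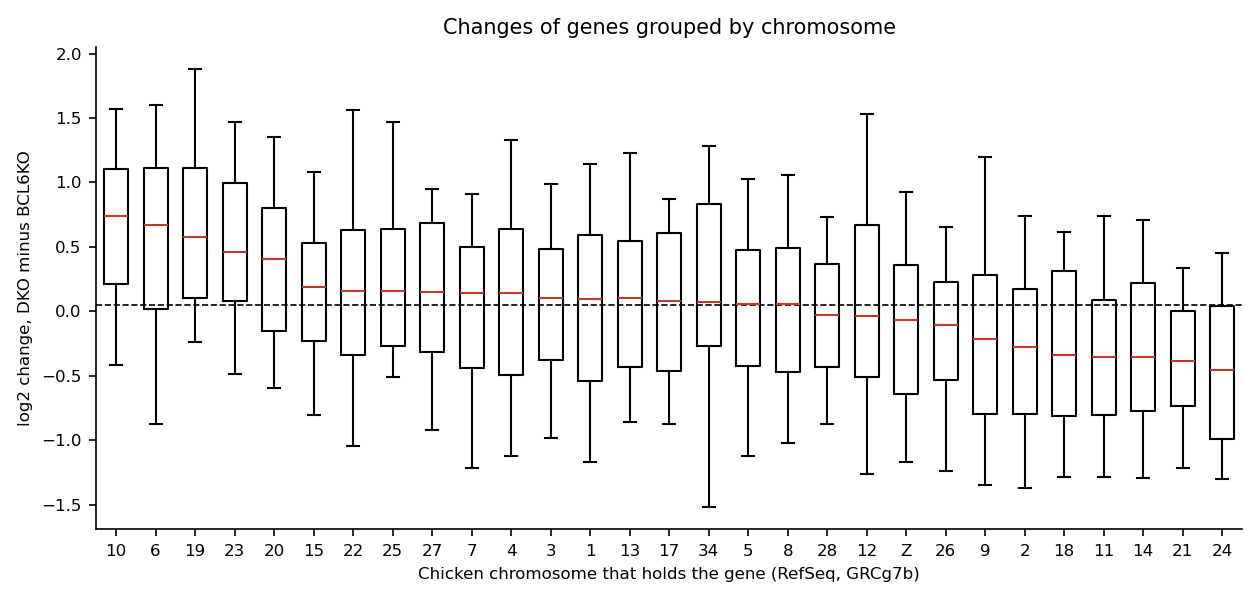
Log2 change (DKO minus BCL6KO) of genes measured on all 5 arrays, by chromosome, for chromosomes with at least 25 such genes. Boxes give the quartiles, red lines the median and whiskers the 10th and 90th percentiles, and the dashed line is the median of all genes (0.05). Chromosomes 10, 6 and 19 lie highest and chromosomes 21 and 24 lowest.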

How the data were processed

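Processed values were read from the scanner files of 8 arrays (3 DKO, 2 BCL6KO, 3 WT). Per the file headers, the deposited processed signal is a linear intensity from which Agilent Feature Extraction took background and a spatial trend (10.7.1.1 for DKO and WT, 10.7.3.1 for BCL6KO), with no normalization between arrays. The files also hold median spot and background intensity and flags per spot. The series' value table was not used here. Levels were log2(processed signal) minus each array's 75th percentile. Control and outlying spots were left out. Of 43603 probes, 10857 were named through RefSeq accessions (5005 symbols). Probes well above background on at least 2 of 8 arrays were kept (34229), and each gene was read by its probe with the highest mean.

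On all 8 arrays, limma 3.58.1 in R 4.3.3 gave the contrast DKO minus BCL6KO (5 residual and 1.584 prior degrees of freedom). The pooled spread may understate that of BCL6KO, whose pair differed by an SD of 0.652 against 0.447 to 0.486 between DKO arrays. An exact permutation test of 3 against 2 arrays cannot reach 0.05. The number of arrays limits precision.

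The comparison, the gene lists and the rules were chosen with earlier results of these data known. Named genes were IRF4, BCL6, PAX5, EBF1, PRDM1, JCHAIN, XBP1 and MYC, the largest changes in each direction in each list and over all genes, by measured change and by bound, and markers or regulators of a list. Genes whose probes were called in opposite directions (191 entries) were left out when the largest changes were picked for naming, but stayed in the counts, shares and medians. Alternatives covered scaling, background, filter, weights, minimum fold, replicate and slide blocks, probe averaging and each array left out. Same-numbered DKO and BCL6KO arrays were not treated as pairs. Their deviations correlated by 0.021 and 0.044, and those of DKO array 3 and BCL6KO array 1 by 0.024. The deviations of 2 BCL6KO arrays mirror each other, so these values cannot show whether the numbers pair the samples. A planned promoter motif count was not run, and some genes are not reported here.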

Additional observations from a re-analysis of the deposited data

Results flagged for a closer look

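The E1A control RNAs, which enter no comparison of genes, differed between the groups. Relative to the 75th percentile of the array, their median level was lower in DKO than in BCL6KO by 1.42 on the log2 scale (-1.42, DKO minus BCL6KO, 6 controls), and higher in DKO than in WT by 0.36. All 3 DKO arrays were below both BCL6KO arrays for each of the 6. Scaling to the controls would move every change in DKO against BCL6KO up by this amount. The groups of 3 and 2 arrays were too small for an outlier test.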

How the results depend on the processing

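IRF4 stayed lower and BCL6 higher in DKO than in BCL6KO under all 18 alternatives. The count of called entries, 16491 in all, ran from 15056 to 17449 with each array left out in turn, with 6405 to 7903 higher and 8651 to 10167 lower. A minimum fold of 1.5 left 8113 called (3380 higher, 4733 lower), fewer because the test asks for more. Array weights left 6116 lower and 11416 in all, and the cause was not tested. With the filter on dim probes lifted, 19515 of 31523 were called, 9878 higher and 9637 lower, so the excess of lower calls was not kept. The share of called entries that were higher was 42.4%, and 50.3% under scaling by the median. A replicate block on the shared array numbers gave 14887 calls. Whether the numbers pair the samples is not known, and the correlations of 0.021 and 0.044 cannot show it. Among named genes, the change of HSPA5 ran from -0.62 without BCL6KO array 1, where it was called lower, to 0.16 without BCL6KO array 2, and the cause was not tested. With a minimum fold of 1.5, DNA replication had 13 higher and 1 lower, mitosis 10 and 1, ER folding 1 and 8, and sterol synthesis 0 and 12. That setting also lost the calls of TFEB, HK2, EIF2AK3, TOP2A, PTPRC, VDAC2, UFD1L, NDUFB8, SDHB and FYN. Signal near background limits the size of changes for genes dark in DKO or BCL6KO, whose "at least" folds hold for the main processing only. Sizes also moved for some genes read on all 5 arrays but dim in DKO or BCL6KO. Over the alternatives the log2 change ran from 4.78 to 9.27 for MYO1G and from 6.24 to 9.66 for ITGB2. It ran from 6.74 to 9.59 for PTPN6 and from -6.79 to -2.81 for BTC. The direction of these changes held. The BCL6KO spread rests on 2 arrays.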
